A study of Mus musculus with 2 samples.

Results

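The cells described here were ILC1-like cells of the natural killer (NK) lineage, taken from tumor-bearing livers of mice with cholangiocarcinoma (CCA). A cell was a member when between 500 and 5000 genes were detected in it, mitochondrial transcripts made up at most 10% of its UMIs, and it met a gate on counted transcripts. UMIs are molecular barcodes that count individual transcripts. The gate asked for a UMI of at least 2 of *Ncr1*, *Klre1*, *Klrb1c* and *Klrb1b*, none of the T cell genes *Cd3d*, *Cd3e* and *Cd3g*, the B cell gene *Cd79a* or the macrophage gene *C1qa*, at least 1 UMI over *Il7r*, *Cxcr6* and *Gzmc*, and none of *Klra8*, *Klra4*, *S1pr5* and *Itga2*. This gate found 353 members among 31891 kept cells, 182 with PBS and 171 with anti–PD-1. The members were thus chosen by the measured UMIs of the 16 genes of the gate, so their levels below are a description of the gate.

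NK cells and type 1 innate lymphoid cells (ILC1s) are the innate lymphocytes of the type 1 response. Both carry NK receptors, depend on the transcription factor T-bet and make IFN-γ, and neither uses a rearranged antigen receptor. Conventional NK cells circulate, need Eomes, and kill through perforin and granzymes. The liver is the organ in which ILC1s were first told apart from NK cells. There they reside in the sinusoids, lack Eomes, and carry CD49a, CD200R1, CXCR6, the IL-7 receptor and the death ligand TRAIL. In tumors, cells with features of both have been described, and TGF-β is known to push NK cells toward an ILC1-like state.

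Single-cell RNA-Seq (scRNA-Seq) was run on 2 libraries, 1 per treatment, so that no difference between treatments has a replicate check. CCA was induced by hydrodynamic tail vein injection (HDTVI) of activated Notch (NICD) and myristoylated AKT, which transforms liver cells in place. Both libraries came from shYT mice, in which doxycycline switches on shRNAs against *Yap1* and *Wwtr1* (Taz) in all cells through a CAG-driven rtTA3. The knockdown ran from day 25 until harvest on day 33 in both groups, so that it is shared by them and not compared. One group received PBS, and the other received an antibody against mouse PD-1 on days 26, 29 and 32. PD-1 is an inhibitory receptor best known from T cells, and its blockade is used to release their activity. The labels used here give no age, sex, number of animals or batch, and do not say which of the shRNA lines was used. The study gives several replicates per group for this experiment, but hashtag labeling was left out on this platform and the matrices do not tie cells to animals. Livers were digested with enzymes, dead cells were removed, and no cell type was sorted.

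The files held 19397 barcodes and 121713441 UMIs with PBS and 19451 barcodes and 100807037 UMIs with anti–PD-1, of which 15531 and 16360 cells were kept, with medians of 3159 and 2990 UMIs. The libraries shared 219 barcodes, 1.13% of those of each, and no member had its barcode among the members of the other library. *Xist*, the RNA of the inactive X chromosome, had 114 UMIs in 65 members of the PBS library and 0 UMIs in the anti–PD-1 library, whereas 32 and 75 members carried a Y-linked UMI and none of *Xist*. Cells of both sexes were thus present in the PBS library and only cells without *Xist* were seen among the anti–PD-1 members, which ties sex composition to treatment here. Members held 552227 and 602811 UMIs in all, with medians of 2750 (range 685 to 9607) and 3140 (range 809 to 10140) UMIs per cell, and a median of 2.98% and 3.53% of their UMIs were mitochondrial.

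The members made up 1.17% of kept cells in the PBS library (182 of 15531, 95% exact Clopper-Pearson interval 1.01% to 1.35%) and 1.05% with anti–PD-1 (171 of 16360, 0.895% to 1.21%). These intervals, like all intervals given here, cover counting error only. Of the cells of the NK gate that carried none of the excluded T, B and macrophage genes, 50.6% (182 of 360) were ILC1-like in the PBS library and 46.0% (171 of 372) with anti–PD-1, and the intervals overlapped. The shares depended on which genes were used for exclusion. *C1qa* was seen in 33.3% of all NK-gated cells of the PBS library and in 46.1% of those of the anti–PD-1 library, and *Cd79a* in 22 of 867 and 130 of 1220. When neither gene was used for exclusion, which was decided after the values were seen, the share was 1.84% (285 cells) in the PBS library and 2.21% (362 cells) with anti–PD-1, so that the direction turned. When every cell was first thinned to 1000 UMIs, the gate found 137 and 150 cells, or 0.948% and 0.999%. No difference in the abundance of ILC1-like cells between the libraries held across these gates.

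Near the edge of the gate, 34 and 38 members in the PBS and anti–PD-1 libraries had exactly 1 UMI of the admitting genes *Il7r*, *Cxcr6* and *Gzmc*, and 46 and 42 had exactly 2 of the NK genes. Just outside it, 39 and 34 cells had only 1 of the NK genes, 18 and 23 failed through a single UMI of *Klra8*, *Klra4*, *S1pr5* or *Itga2*, and 100 and 151 through a single UMI of an excluded T, B or macrophage gene. Among the genes that chose the members, *Ncr1*, which encodes the activating receptor NKp46, was at 806 CPM (the gene's UMIs scaled to a fixed total for the summed cells of a library) with PBS and 529 CPM with anti–PD-1 and was seen in 81.9% and 71.9% of members. *Klre1* was seen in 73.1% and 85.4%, *Klrb1c* (NK1.1) in 78.6% and 82.5%, and *Klrb1b* in 75.8% and 81.3%. *Il7r* was at 598 and 514 CPM, *Cxcr6* at 527 and 469 CPM, and *Gzmc* at 349 and 323 CPM. *Gzmc*, a granzyme of mouse NK lineage cells, was the most restricted of the admitting genes and was seen in 26.9% and 30.4% of members.

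The label was checked with genes that the gate did not use. Conventional NK-like cells, which passed the same NK gate but carried a UMI of *Klra8*, *Klra4*, *S1pr5* or *Itga2* and none of the admitting genes, served for comparison (102 cells with PBS and 111 with anti–PD-1). The NK gate did not split into these classes alone. Cells with UMIs of both gene sets (26 with PBS and 32 with anti–PD-1) or of neither (50 and 58) were in neither class. Of 12 further ILC1 genes, 11 had at least 30 UMIs over the summed classes. All 11 were higher in ILC1-like than in conventional NK-like cells in each library, and 10 were at least 2-fold higher in both, with median log2 ratios of 2.58 in the PBS library and 2.35 with anti–PD-1. Over all 7016 genes measured in this comparison, 2.35% were at least 2-fold higher in both libraries. Of 14 further conventional NK genes, 12 were measured, and all 12 were at least 2-fold lower in both libraries (medians −3.23 and −2.78), against 1.05% of all measured genes.

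*Itga1*, which encodes the residency integrin CD49a, was at 138 and 148 CPM in ILC1-like cells of the PBS and anti–PD-1 libraries and at 39.5 and 16.6 CPM in conventional NK-like cells. *Cd200r1*, an inhibitory receptor used to identify liver ILC1s, was at 148 and 126 CPM against 4.39 and 2.76 CPM, where the latter stand for single UMIs. *Tmem176b*, a cation channel gene of innate lymphoid and myeloid cells, was at 614 and 483 CPM against 65.8 and 49.7 CPM. In each library these genes were lower in the conventional NK-like cells. T cells held part of the same program: the summed level of the 12 ILC1 genes was 2716 and 2490.0 CPM in members, 435 and 475 CPM in conventional NK-like cells and 1972 and 1429 CPM in T cells, so that the list set members apart from conventional NK-like cells far more than from T cells. *Eomes*, the transcription factor of conventional NK cells, had 4 and 2 UMIs over all members, at 7.24 and 3.32 CPM, against 285 and 339.6 CPM in conventional NK-like cells. *Cma1*, a mast cell protease gene also read in NK cells, was at 0 UMIs in members of either library and at 246 and 243 CPM in the comparison class. The inhibitory Ly49 receptor gene *Klra7* was at 29 and 39.8 CPM against 838 and 709.6 CPM. Ly49 genes are near-identical copies of each other, so reads may be split among them.

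**Figure D1:**
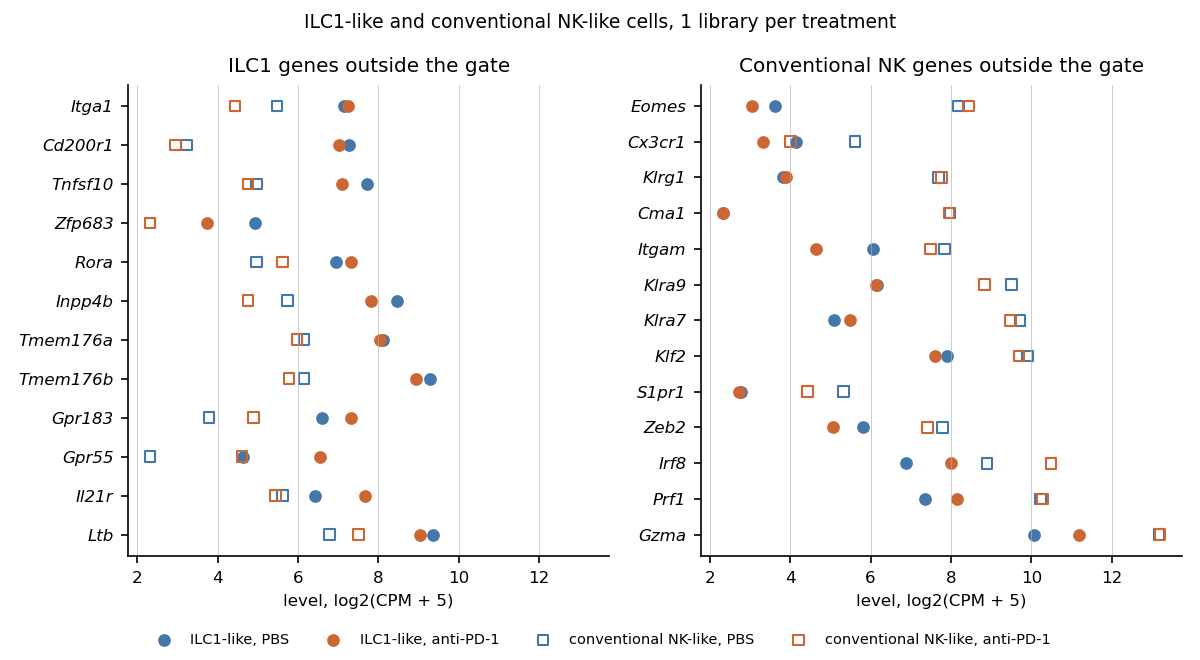
Levels, as log2(CPM + 5), of genes that the gate did not use, in ILC1-like cells (filled circles) and conventional NK-like cells (open squares) of the PBS (blue) and anti–PD-1 (orange) libraries, with 1 sum per library and no error bars. All 11 measured ILC1 genes lay to the right of the conventional NK-like cells in each library, and Eomes was at 7.24 and 3.32 CPM in ILC1-like cells against 285 and 340 CPM in conventional NK-like cells.

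The cytotoxic genes did not follow 1 direction against the comparison class. Of 12 measured, 3 were at least 2-fold lower in ILC1-like cells of both libraries (*Gzma*, *Prf1* and *Serpinb9b*), against 1.05% of all genes. The TRAIL gene *Tnfsf10* was the 1 at least 2-fold higher in both, against 2.35% of all genes. The medians were −0.56 with PBS and −0.15 with anti–PD-1. *Gzma* was at 1058 and 2317 CPM in ILC1-like cells of the PBS and anti–PD-1 libraries and at 9223 and 9417 CPM in conventional NK-like cells. *Prf1*, which encodes the pore-forming protein perforin, was at 159 and 277 CPM against 1198 and 1234 CPM. Of the checkpoint genes, 6 of 11 measured were at least 2-fold higher in ILC1-like cells of both libraries, against 2.35% of all genes, with medians of 1.32 and 1.12. These were the receptor genes *Lag3*, *Cd160*, *Klrc1* and *Cd96*, the signaling inhibitor gene *Cish* and the nuclear factor gene *Tox*. Among the 12 genes with the largest ratios to conventional NK-like cells that lay past 2-fold in both libraries were *Trgc4*, a constant gene of the T cell receptor γ locus, at 378 and 327 CPM against 17.6 and 0 CPM, *Cd200r2*, *Asb2* and *Pdcd1lg2*, which encodes the PD-1 ligand PD-L2. Lowest against that class were *Cma1*, *Klra1*, *Eomes*, *Klra7* and *Klrg1*. No difference between cell classes was tested, since each class was 1 sum per library.

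Markers of other lymphocytes were read in the same cells. The ILC3 genes *Il22*, *Il17a*, *Il17f*, *Il1r1* and *Ccr6* had 0 UMIs in the members of both libraries, which allows a share of cells with a UMI of up to 1.65% in the PBS library and 1.75% with anti–PD-1. *Il23r* had 1 and 0 UMIs, and *Tmem176b*, which ILC1s and ILC3s share, made up nearly all of the ILC3 list's summed level of 616 and 483 CPM. The ILC2 cytokine gene *Il13* was also at 0. *Trac*, the constant gene of the T cell receptor α chain, was seen in 5.49% of members of the PBS library and 7.02% of those of the anti–PD-1 library, and *Cd4*, *Cd8a* or *Cd8b1* in 1.65% and 3.51%. In contrast, *Trac*, *Trbc1* or *Trbc2* was seen in 83.5% and 95.9% of members, with *Trbc1* at 585 and 773 CPM. The part of such cells or transcripts in the results was not tested. A gate that also excluded *Trac*, *Trbc1*, *Trbc2*, *Cd4*, *Cd8a* and *Cd8b1* left 30 cells with PBS and 7 with anti–PD-1. These are too few to describe the class, and their values are given only among the alternative settings at the end. The residency genes were read in only part of the members: *Itga1* in 29.1% and 33.3%, *Cd200r1* in 28.0% and 28.1%, *Tnfsf10* (TRAIL) in 39.6% and 32.2%, and none of *Itga1*, *Cd200r1*, *Tnfsf10* and *Zfp683* in 33.0% and 34.5%. The 13 listed T cell markers outside the gate, 12 of them in the files, summed to 1204 and 1588 CPM in members, 658 and 842 CPM in conventional NK-like cells and 5064 and 5878 CPM in T cells. The name ILC1-like thus rested on the contrast with conventional NK-like cells. The CD3 genes were absent by the gate and say nothing on T cells, and roughly 1 member in 3 had no UMI of these defining genes at this depth.

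The members differed among themselves along the admitting genes. In the PBS library, 38 members were admitted by *Il7r* alone, 37 by *Cxcr6* alone, 8 by *Gzmc* alone and 99 by several of these genes, and in the anti–PD-1 library these numbers were 42, 44, 10 and 75. *Gzmb*, which was not in the gate, was at 397 CPM in *Il7r*-only members of the PBS library and at 1939.9 CPM in *Cxcr6*-only members, and at 1601 and 2910.3 CPM in the anti–PD-1 library. *Gzma* followed the same order, at 577 and 1632 CPM with PBS and 1364 and 3425 CPM with anti–PD-1. *Cxcr6*-only members thus carried more of both granzymes in each library. *Klf2* and *Tcf7*, which were picked after their values were seen, had the opposite order. *Klf2*, a factor that drives tissue exit, was at 454 against 175 CPM with PBS and 238 against 93 CPM with anti–PD-1, and *Tcf7* (TCF-1) at 142 against 33.3 CPM and 107 against 71.5 CPM, where the intervals overlapped in either library. *S1pr1*, another gene of tissue exit, had 0 UMIs in both kinds of members of either library.

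Between the treatments, genes were compared as the log2 ratio of (CPM + 5), anti–PD-1 over PBS, for the 5736 genes with at least 30 UMIs over both sums. Of these, 191 (3.33%) were at least 2-fold higher and 182 (3.17%) at least 2-fold lower in the anti–PD-1 library, the median of all was −0.09, and 58.9% of all lay below 0. With the median set to 0, the split was 242 higher and 132 lower. Among the lists of lymphocyte functions, the highest medians were those of immediate early genes (1.08), NF-κB targets and regulators (0.92), costimulatory receptors (0.92), cytotoxic genes (0.78) and type I interferon genes (0.65). Markers of other cell types gave medians of 2.96 for neutrophils (6 measured) and 1.43 for ILC2s (2 measured, *Gata3* at 0.48 and the hypoxia gene *Hilpda* at 2.39), 0.33 for macrophages (6 measured), 0.23 for T cells (5) and −0.26 for tumor and biliary cells (5, of which 0 were higher). With 1 gene measured each, the values were −1.40 for dendritic cells, −1.06 for hepatocytes, −0.47 for endothelial and stromal cells, −0.34 for ILC3s and −0.16 for B cells. Of the identity lists, the medians were −0.07 for the ILC1 genes outside the gate, −0.06 for genes shared by NK cells and ILC1s, −0.17 for NK receptors and 0.36 for the conventional NK genes outside the gate (9 measured, 5 higher). That last list holds *Gzma*, *Irf8* and *Prf1*, 2 of its genes were at least 2-fold higher and 1, the integrin gene *Itgam*, at least 2-fold lower (−1.42). Since the libraries were 1 per treatment, these are differences between 2 libraries, and no list or gene was tested.

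**Figure D2:**
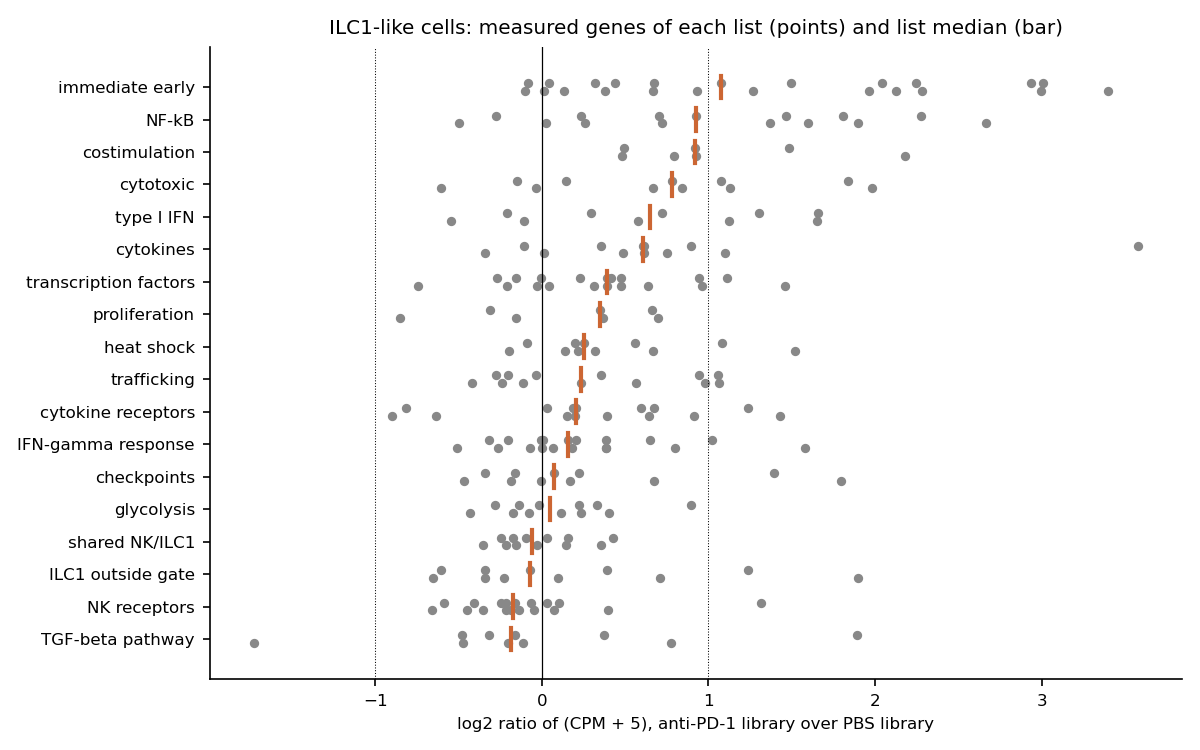
Log2 ratios of (CPM + 5), anti–PD-1 library over PBS library, in ILC1-like cells, for the measured genes of each list shown (grey points) with the list's median (orange bar) and dotted lines at a 2-fold difference. The conventional NK genes outside the gate (median 0.36) and the markers of other cell types are not shown. Of the 23 immediate early genes 21 lay above 0 and 12 at or beyond 2-fold higher, whereas the ILC1, shared and NK receptor lists were centred near 0.

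Immediate early genes are transcribed within minutes of a signal and feed back on it. Of 25 listed, 23 were measured, 21 were higher in the anti–PD-1 library and 12 were at least 2-fold higher, against 3.33% of all genes. The list was chosen with earlier results of these data known, so these counts are a description. *Nr4a1*, an orphan nuclear receptor gene read as a sign of antigen or activating receptor signals, was at 125 CPM with PBS and 1042 CPM with anti–PD-1 (log2 ratio 3.01, 95% exact counting interval 2.66 to 3.38), and was seen in 20.9% and 81.9% of members. Shares of cells with a UMI are of unthinned cells unless thinning is named. Its relatives *Nr4a3* (57.9 and 498 CPM, 3.00) and *Nr4a2* (74.2 and 322 CPM, 2.04) were higher as well. The AP-1 gene *Fosl2* went from 34.4 to 409.7 CPM (3.40, interval 2.79 to 4.04) and from 8.24% to 62% of members. *Vps37b*, a gene of the endosomal sorting machinery, was at 230.0 and 1792 CPM (2.93), in 42.3% and 95.9% of members. The cAMP-responsive repressor gene *Crem* was at 81.5 and 416 CPM (2.28), and the MAP kinase phosphatase gene *Dusp5* at 154 and 749.8 CPM (2.25). Over the alternative gates and settings, the ratio of *Dusp5* ranged from 0.16 to 2.63, so its place past 2-fold did not hold throughout. The program was not uniform. *Junb* was at 1679 and 4049 CPM (1.27), while *Fos* was at 346 and 348 CPM (0.01, interval −0.28 to 0.30) and *Jun* at 489 and 455 CPM (−0.10, interval −0.35 to 0.14), so that this AP-1 pair differed little between the libraries.

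The difference ran through most members. With each cell thinned to 1000 UMIs, which left 179 and 169 cells, the number of listed immediate early genes with a UMI per cell was 0 at the lowest, 4 at the median and 12 at the highest with PBS and 2, 8 and 14 with anti–PD-1. It was seen in the other classes too. The same list had a median ratio of 1.26 in conventional NK-like cells, 1.06 in T cells and 1.36 in B cells of these libraries, and thinned B cells showed *Nr4a1* in 9.09% and 52.4%, against 7.26% and 55% of members. B cells had lower shares for *Fosl2*, at 0.519% and 7.7% against 3.35% and 33.1% of members. Median depths were 1798 and 2362.5 UMIs per B cell before thinning.

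**Figure D3:**
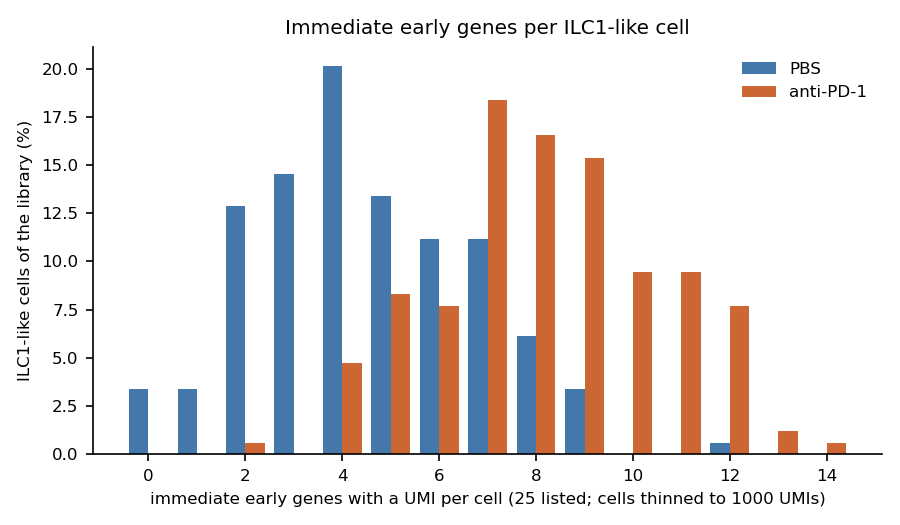
Share of ILC1-like cells (y axis, percent of the library's cells) by the number of the 25 listed immediate early genes with a UMI (x axis), after thinning each cell to 1000 UMIs, in the PBS (blue, 179 cells) and anti–PD-1 (orange, 169 cells) libraries. The median was 4 genes with PBS and 8 with anti–PD-1, and the libraries overlapped.

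NF-κB is held in the cytoplasm by IκB proteins and, once freed, switches on its own inhibitors along with inflammatory and survival genes. Of 15 listed genes all were measured, 13 were higher in the anti–PD-1 library and 7 at least 2-fold higher, against 3.33% of all genes. *Tnfaip3*, which encodes the feedback inhibitor A20, was at 176 and 1139.7 CPM (2.66, interval 2.36 to 2.98) and was seen in 30.8% and 83.6% of members. The inhibitor genes *Nfkbiz* (99.6 and 503 CPM, 2.28), *Nfkbid* (79.7 and 292 CPM, 1.81) and *Nfkbia* (554 and 1687 CPM, 1.60) and the subunit gene *Rel* (48.9 and 196 CPM, 1.90) were also higher. *Tnfaip3* and *Nfkbiz* had the highest ratios of the list, followed by *Rel*. The inhibitor gene *Nfkbib* lay at 0.26 (−0.37 to 0.89). *Nfkb2*, a subunit of the noncanonical arm, lay at −0.50 (interval −1.17 to 0.16), and the survival gene *Bcl2l1* at −0.28 (interval −1.06 to 0.51). The list's median was 1.48 in conventional NK-like cells, over 14 genes (1.15 in members over the same genes), 0.46 in T cells and 0.69 in B cells. In thinned cells, *Tnfaip3* was seen in 17.3% and 56.2% of members and in 4.55% and 14.2% of B cells.

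Promoter sequences of these lists were searched for the motifs of NF-κB and of the cAMP response element, and 4 windows are shown because their genes were among those higher in the anti–PD-1 library. Sequences were taken from RefSeq (GRCm38.p6), and the 250 bases before each RefSeq start were searched on both strands. The NF-κB motif was found in 6 of the 12 NF-κB list genes with a promoter window (50%; *Nfkbia*, *Nfkbid*, *Nfkb2*, *Rel*, *Tnfaip3* and *Bcl2l1*), against 8.23% of 27025 genes, and the core of the cAMP response element, TGACGT, or ACGTCA on the other strand, in 7 of 20 immediate early genes (35%), against 7.29%. The crossed shares were also above those of all genes, with the NF-κB motif in 25% of the immediate early genes and the response element core in 25% of the NF-κB list genes. Both motifs were found for *Nfkbid*, *Rel* and *Tnfaip3* of the NF-κB list and for *Fos* and *Egr2* of the immediate early list. The lists were named for such pathways, the matched genes include *Nfkb2* and *Bcl2l1*, whose ratios were below 0, and a match is a description of these letters only. The windows below are given on the strand of the gene, and capitals mark the NF-κB motif in the *Nfkbia*, *Tnfaip3* and *Rel* windows and TGACGT in that of *Nr4a3*. They lie at chr12:55492652-55492691 (minus strand, 44 to 5 bases before the *Nfkbia* start), chr10:19015411-19015550 (minus strand, 140 to 1 bases before the *Tnfaip3* start), chr11:23771036-23771076 (minus strand, 107 to 67 bases before the *Rel* start, with 2 overlapping matches) and chr4:48045059-48045178 (plus strand, 246 to 127 bases before the *Nr4a3* start).
Nfkbia: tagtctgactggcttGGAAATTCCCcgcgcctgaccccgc
Tnfaip3: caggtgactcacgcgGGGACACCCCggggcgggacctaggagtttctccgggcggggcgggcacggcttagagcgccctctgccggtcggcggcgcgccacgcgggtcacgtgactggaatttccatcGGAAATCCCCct
Rel: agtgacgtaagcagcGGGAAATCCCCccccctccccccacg
Nr4a3: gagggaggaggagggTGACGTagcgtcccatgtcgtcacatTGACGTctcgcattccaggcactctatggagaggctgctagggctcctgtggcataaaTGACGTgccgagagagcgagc

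Cytotoxic genes came next. Of 18 listed, 11 were measured, with a median of 0.78. Of these, 8 were higher in the anti–PD-1 library and 4 at least 2-fold higher, against 3.33% of all genes. *Gzma* was at 1058 CPM with PBS and 2317 CPM with anti–PD-1 (1.13, interval 0.99 to 1.27) and was seen in 30.8% and 40.9% of members, and *Gzmb* was at 1282 and 2037 CPM (0.67, 0.53 to 0.80), in 55.5% and 74.3%. *Prf1* was at 159 and 277 CPM (0.78, 0.41 to 1.16). The granzyme inhibitor genes *Serpinb9* and *Serpinb6b*, which protect a killing cell from its own granzymes, had the largest ratios of the list, with *Serpinb9* at 156 and 630.4 CPM (1.98, 1.65 to 2.33) and *Serpinb6b* at 210.1 and 765 CPM (1.84, 1.55 to 2.14). The death ligands went apart. *Fasl* was at 125 and 269 CPM (1.07, 0.67 to 1.49) and *Tnfsf10*, the ILC1 ligand TRAIL, at 205 and 133 CPM (−0.61, −1.02 to −0.19). Thinned B cells, which do not make granzyme B, had a *Gzmb* UMI in 0.13% and 2.09%, against 36.9% and 60.9% of members.

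In conventional NK-like cells, which started higher, *Gzma* had a ratio of 0.03 (interval −0.05 to 0.11), *Gzmb* 0.14 (−0.06 to 0.34) and *Prf1* 0.04 (−0.18 to 0.26), while *Serpinb9* (1.18) and *Serpinb6b* (1.05) were higher there too. The median over the 10 genes measured in that class was 0.09, against 0.81 for the same genes in ILC1-like cells. In T cells the median was 0.39 over 11 genes (0.78 in members), and in B cells 0.61 over 10 (0.72 in members), 4 of them at least 2-fold higher, so that cytotoxic genes were not higher in members alone. The difference between the classes was not tested, and both the list's median and *Gzma* moved with the gate. When the gate was applied to thinned cells, *Gzma* was at 2407 CPM with PBS (137 cells) and 2239 CPM with anti–PD-1 (150 cells), a ratio of −0.10, *Prf1* had a ratio of 0.29, *Gzmb* 0.44, *Serpinb9* 2.13, *Serpinb6b* 1.56 and the list a median of 0.29. In that gate *Klra7*, a conventional NK gene, was at 67.3 and 29.1 CPM, against 29 and 39.8 CPM in the gate on all UMIs. The 29 CPM came from 0.549% of members of the PBS library. *Eomes* was at 7.48 and 5.13 CPM in the gate on thinned cells, against 7.24 and 3.32 CPM, and *Klra8* was at 0 in both gates. Thus both inhibitor genes kept their direction and place past 2-fold under thinning, and *Gzma* did not.

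**Figure D4:**
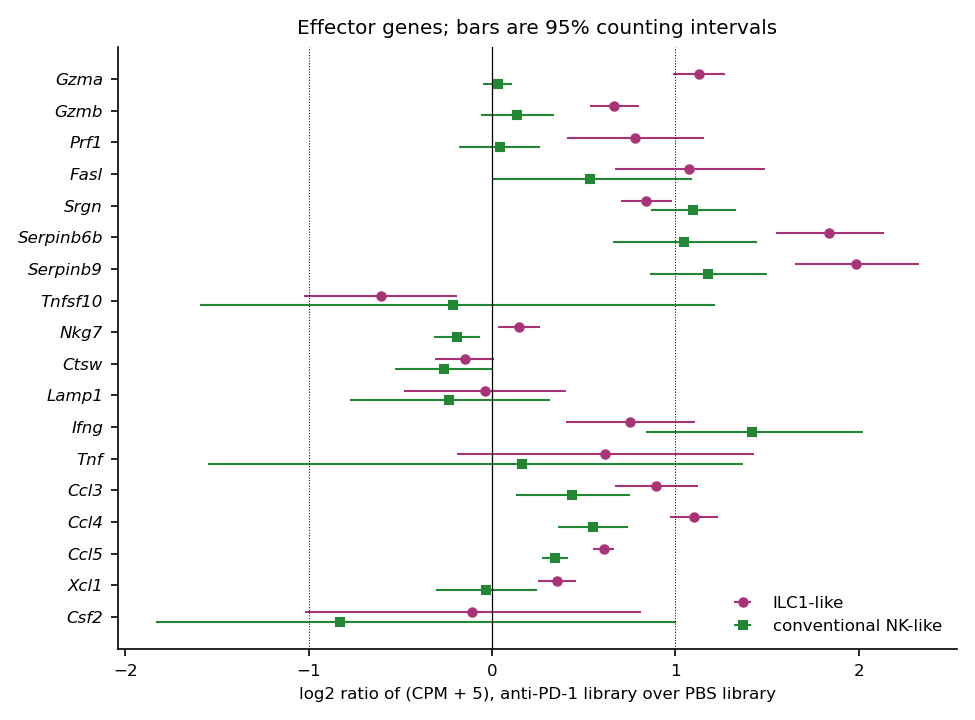
Log2 ratios of (CPM + 5), anti–PD-1 library over PBS library, of cytotoxic and cytokine genes in ILC1-like cells (purple circles) and conventional NK-like cells (green squares), with 95% exact counting intervals as bars and dotted lines at a 2-fold difference. Gzma lay at 1.13 in ILC1-like cells and at 0.03 in conventional NK-like cells, and Serpinb9 lay above 1 in both.

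Of 18 cytokine and chemokine genes, 12 were measured, with a median of 0.61. Of these, 10 were higher in the anti–PD-1 library and 2 at least 2-fold higher, against 3.33% of all genes. The list's median was 0.55 in conventional NK-like cells over 7 genes, 0.19 in T cells over 12 and 0.69 in B cells over 9. *Ifng*, the defining cytokine of ILC1s, was at 183 and 312 CPM (0.75, interval 0.41 to 1.11), and in thinned cells it was seen in 15.1% and 15.4% of members. Its level was thus higher while the share of cells with a UMI hardly differed at equal depth. *Tnf* was at 30.8 and 49.8 CPM, with an interval that held 0 (0.61, −0.19 to 1.43). The chemokine genes *Ccl4* (1222 and 2626 CPM, 1.10), *Ccl3* (433 and 809.5 CPM, 0.90) and *Ccl5* (6697 and 10212 CPM, 0.61), which draw T cells and myeloid cells, were higher. *Xcl1*, which draws cross-presenting dendritic cells, was at 2437 and 3115 CPM (0.35). *Cxcl10*, an interferon-induced chemokine gene, went from 1 to 46 UMIs (3.58, 2.34 to 4.04), a ratio over a single UMI that was 4.78 with a pseudocount of 1 CPM, and *Ltb*, the lymphotoxin β gene of lymphoid cells, lay at −0.34 (−0.56 to −0.12).

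The target of the antibody was barely read. *Pdcd1* had 3 UMIs in members of the PBS library and 2 in those of the anti–PD-1 library, so that both libraries were at or under 3 counts, where no ratio is given. Over the 13 listed checkpoint genes, 11 were measured and the median was 0.07. Of these, 6 were higher and 2 were at least 2-fold higher, against 3.33% of all genes. The exceptions were *Cd274*, which encodes PD-L1 (29 and 113 CPM, 1.79, interval 1.08 to 2.54), and *Ctla4* (25.4 and 74.7 CPM, 1.39, 0.60 to 2.20). *Lag3* (0.17) and *Tigit* (−0.16) differed little. Costimulatory receptors were higher in all 7 measured of 9 listed, 2 of them at least 2-fold, against 3.33% of all genes. *Icos* was at 25.4 and 133 CPM (2.18, 1.45 to 2.94) and *Cd28* at 56.1 and 166 CPM (1.48, 0.92 to 2.06), and both are better known from T cells. *Tnfrsf9* (4-1BB), a receptor that activated NK cells and T cells share, lay at 0.93 (0.48 to 1.38). The list's median was 0.38 in conventional NK-like cells over 5 genes, 0.69 in T cells over 7 and 0.70 in B cells over 4. Over the same genes, the members had medians of 0.92, 0.92 and 1.20.

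Of the cytokine receptors, 12 of 15 measured were higher, 2 at least 2-fold (3.33% of all genes were), with a median of 0.20. The intervals lay above 0 for 7 of them and below 0 for 3. *Il2ra*, the high-affinity IL-2 receptor chain, was at 61.6 and 174 CPM (1.43, interval 0.89 to 1.99) and *Il21r* at 81.5 and 199 CPM (1.24, 0.76 to 1.74), whereas *Il18r1*, the receptor for the macrophage cytokine IL-18, was at 208 and 109 CPM (−0.90, −1.34 to −0.46). Type I interferon genes were higher in 7 of 10 measured, 4 at least 2-fold, against 3.33% of all genes. Among these 4 were *Isg15*, a ubiquitin-like antiviral modifier (50.7 and 171 CPM, 1.66, 1.08 to 2.26), and *Irf7*, the amplifier of that response (27.2 and 96.2 CPM, 1.65, 0.91 to 2.42). The type I list's median was 0.71 in conventional NK-like cells over 8 genes, 0.62 in T cells over 10 and 0.97 in B cells over 10. It was 0.65 in members, so these genes were not higher in members alone. Genes of the IFN-γ response had a median of 0.16 over 19 measured, with 2 at least 2-fold higher, against 3.33% of all genes. Among these 2 was *Irgm2*, which encodes an immunity-related GTPase, at 1.58. Ratios ranged from 0.22 to 1.97 for *Irf7* and from 0.28 to 2.86 for *Irgm2* over the alternative gates and settings. Many genes of the interferon lists are known to answer to both kinds of interferon.

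The ILC1 genes that marked the class showed no common direction between the libraries. Of the 11 measured ILC1 genes outside the gate, 5 were higher and 6 lower in the anti–PD-1 library. The orphan receptor gene *Gpr55* (19.9 and 87.9 CPM, 1.90) and *Il21r* were the 2 at least 2-fold higher, against 3.33% of all genes. In thinned cells the number of these genes per cell had a median of 2 in either library, and 11.2% and 10.7% of members had none. *Itga1* had a ratio of 0.10 (interval −0.34 to 0.54) and *Cd200r1* of −0.23 (−0.68 to 0.22). Of 19 transcription factors measured, 13 were higher and 2 at least 2-fold, against 3.33% of all genes. These 2 were *Bhlhe40*, a cofactor of IFN-γ production (282 and 785 CPM, 1.46), and *Irf8*, needed in NK cells for antiviral responses (112 and 249 CPM, 1.11). The lineage factor *Tbx21* (T-bet) was at 183 and 179 CPM (−0.03, −0.42 to 0.37). *Id2*, which all innate lymphoid cells need, lay at −0.16 (−0.29 to −0.03).

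NK receptors were lower in 13 of 18 measured genes, beside 58.9% of all genes below 0, with 1 at least 2-fold higher, the Ly49 gene *Klra3* (16.3 and 48.1 CPM, 1.32), and 0 at least 2-fold lower. The NK genes of the gate, whose ratios only describe the gate, went both ways. *Ncr1* lay at −0.60 (−0.81 to −0.39) and *Klrb1c* at −0.002, whereas *Klre1* lay at 0.16 and *Klrb1b* at 0.23. Genes of the TGF-β pathway, mostly receptors, SMADs and regulators of their signaling, had a median of −0.18 over 10 measured. This direction did not hold throughout: the median was 0.78 with at least 100 UMIs per gene and 0.84 in members with a Y-linked UMI that lacked *Xist*. *Pmepa1*, a TGF-β-induced inhibitor of that pathway, was the gene of the list that was at least 2-fold lower, at 99.6 and 26.5 CPM (−1.73, interval −2.48 to −0.996), and *Tgif1*, a repressor of SMAD targets, was the one at least 2-fold higher (57.9 and 229 CPM, 1.89). Trafficking genes had a median of 0.23 over 13 measured, with *Cd69*, which holds cells in tissue and is also an early activation gene (110.5 and 236 CPM, 1.06), and the CXCL12 receptor gene *Cxcr4* (63.4 and 138 CPM, 1.06) at least 2-fold higher. Proliferation genes showed no common direction (7 measured, 4 higher, none past 2-fold). *Hmgb2*, a chromatin protein gene, was at 393 and 640.3 CPM (0.70, 0.46 to 0.94) and the replication clamp gene *Pcna* at 203 and 323 CPM (0.66, 0.32 to 1.00), whereas *Mki67* lay at −0.31 (−1.07 to 0.44) and the topoisomerase gene *Top2a* at −0.85 (−1.69 to −0.01). At least 2 of the 12 listed genes were seen in 40.1% of unthinned members with PBS (exact interval 32.9% to 47.6%) and 57.3% with anti–PD-1 (49.5% to 64.8%). Under the gate on thinned cells the ratio of *Top2a* turned to 0.37. Glycolysis genes had a median of 0.05 over 12. Heat shock genes had a median of 0.25 over 11, with *Hspa1a* at 1.52.

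Among the 12 genes with the largest ratios were genes of neutrophils, and these are described apart. *Cxcl2*, a chemokine gene (4 and 118 UMIs in the PBS and anti–PD-1 libraries), *Retnlg* (5 and 112), *S100a9* (43 and 463), *S100a8* (84 and 713) and *G0s2* (5 and 65) are abundant in neutrophils, and the member with the most UMIs of each gene held 45.5% of the *Retnlg*, 40% of the *G0s2*, 32.4% of the *S100a9*, 25.7% of the *S100a8* and 12.7% of the *Cxcl2* UMIs of the anti–PD-1 library. *S100a8* was read in 108 members of that library and *Cxcl2* in 51. All 7 listed neutrophil markers were seen, and 5 of the 6 measured were at least 2-fold higher, against 3.33% of all genes. The summed level of the 7 was 322 CPM with PBS and 2374 CPM with anti–PD-1. A UMI of *S100a8* or *S100a9* was seen in 26.4% and 74.3% of members. The same sum was 189 and 1099 CPM in conventional NK-like cells, 659 and 3318 CPM in T cells and 2081 and 8595 CPM in B cells, so that it moved in every class. The part of these transcripts in the results above was not tested. The 7 listed macrophage markers were seen too, at a summed 3147 and 2304 CPM in members and 2643 and 2225 CPM in conventional NK-like cells, although *C1qa* was excluded. The tumor gene *Spp1* (osteopontin) was seen in 87.9% and 68.4% of members.

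*Cxcl10* and *Rgcc*, a cell cycle regulator gene (3 and 66 UMIs, 5.43 and 109 CPM, 3.46, interval 2.38 to 4.27), were also among the ranked genes. They were read in 16 and 28 members of the anti–PD-1 library, where 1 cell held 39.1% of the *Cxcl10* and 31.8% of the *Rgcc* UMIs. The ratio of *Rgcc* was 2.32 under the gate on thinned cells. The other ranked genes were *Fosl2*, *Nr4a1*, *Nr4a3*, *Vps37b* and the immunoglobulin gene *Ighg2b*, 75% of whose UMIs in the anti–PD-1 library lay in 1 cell. At the other end, *Igkv12-44* had 30 UMIs in the PBS library, all in 1 cell, and 0 in the anti–PD-1 library, and the cell with the most UMIs held 90% of the *Ighg2c* and 55.2% of the *Chil3* UMIs of the PBS library. These immunoglobulin and macrophage genes thus rested largely on single cells. *Lztfl1*, which encodes a ciliary trafficking protein also found in lymphocytes, was spread over cells, with 28 and 3 UMIs (−2.48, −3.31 to −1.36) and 12.6% and 1.75% of members. The other genes at this end had few UMIs each, among them *Gm10130* (−2.40), *Dmbt1* (−2.35), *Lrp1* (−2.07) and *Stambp* (−1.75). The cell with the most UMIs also held 42.8% of the *Lyz2* and 41.3% of the antigen-presentation gene *H2-Ab1* UMIs of the PBS library.

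Since *Xist* tied sex composition to treatment, the contrast was repeated in the members with a Y-linked UMI that lacked *Xist*, 32 with PBS and 75 with anti–PD-1. There the immediate early list had a median of 1.89, the NF-κB list 1.54, costimulatory receptors 1.09, cytokines 0.97, cytotoxic genes 0.74 and type I interferon genes 0.71. *Nr4a1* had a ratio of 3.35, *Serpinb9* 2.15, *Ifng* 0.96, *Prf1* 0.78, *Gzmb* 0.74 and *Gzma* 0.66 in these cells. The lists named here were thus higher in the anti–PD-1 library in these members too. *Gzma* had a smaller ratio there than in all members (1.13). Members with neither a Y-linked nor an *Xist* UMI were left out, so these are not all the cells without *Xist*. The part of sex composition in the results was not tested.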

How the data were processed

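Cells of the tumor-bearing livers were encapsulated with the Singleron GEXSCOPE system. The authors deposited 1 matrix of UMI counts per library, aligned by them to mm10 with the Singleron pipeline, and the submitters' processing notes name Seurat 4.3. The members, gene lists and comparisons were chosen with earlier results of these data known. The gate was applied to the deposited counts, and counts were summed over the gated cells of each library and scaled to CPM. Genes with at least 30 UMIs over both sums, other than mitochondrial genes, counted as measured. Ratios used a pseudocount of 5 CPM, which pulls ratios of low genes toward 0, and exact 95% intervals from the counts. A ratio of at least 2-fold was a description, since 1 library per treatment permits no test. The floor for a gene not seen was 3 counts. Genes were named from the fixed lists and as the 12 with the highest and the 12 with the lowest ratio. Some listed genes are counted in the list summaries but not reported singly here. Conventional NK-like, T and B cells served for comparison. T cells had a UMI of at least 2 of *Cd3d*, *Cd3e* and *Cd3g*, fewer than 2 of the NK genes, and none of *Cd79a* and *C1qa*. B cells had a UMI of *Cd79a* and none of the NK genes, the CD3 genes and *C1qa*. Shares at equal depth used cells thinned to 1000 UMIs. Doublet scores came from Scrublet in scanpy 1.11.5. Its automatic threshold marked 0 cells, so the top 6% of scores in each library were marked instead, which took 4 members of the PBS and 10 of the anti–PD-1 library, and these cells were kept in the main values. Ratios and intervals were checked on counts simulated with counting error only, so the check does not cover differences between cells or animals. Python 3.11.15, numpy 2.4.6, scipy 1.17.1 and pandas 2.3.3 were used.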

Additional observations from a re-analysis of the deposited data

Results flagged for a closer look

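The median of the 9 conventional NK genes outside the gate that were measured in both classes was 0.36 in ILC1-like cells (anti–PD-1 over PBS, log2) and −0.24 in conventional NK-like cells. The median of the 14 transcription factors measured in both classes was 0.27 in ILC1-like cells and −0.17 in conventional NK-like cells. Each pair stood out because the medians lay on opposite sides of 0, and neither difference was tested.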

How the results depend on the processing

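With 1 library per treatment no value has a replicate error, libraries could not be left out in turn, sex composition and any batch cannot be told apart from treatment, and low genes rest on few UMIs. No paired analysis was possible because each treatment had 1 library. Over the 13 alternatives, 225 of 239 list medians kept the sign of the main value. In ILC1-like cells, a minimum of 100 UMIs per gene gave 92 genes higher and 18 lower and a TGF-β list median of 0.78, and a minimum of 10 UMIs gave 310 higher and 577 lower, because other numbers of genes were measured. Without exclusion by *Cd79a* and *C1qa* the share difference was 0.378 percentage points (−0.127 in the main gate) and the median of the ILC1 list outside the gate was −0.43. The gate on thinned cells gave a cytotoxic median of 0.29. Excluding 6 further T cell genes, which left 30 and 7 cells, gave 32 genes higher and 51 lower and medians of −1.68 for ILC1 genes outside the gate, 0.62 for immediate early genes, −0.63 for NK receptors, 1.14 for cytokines, −0.26 for cytokine receptors and 0.55 for glycolysis. Only 12 of the 19 lists and 62 single genes could be compared there. The medians of that gate thus rested on few cells and few genes. In members with a Y-linked UMI that lacked *Xist*, 91 genes were lower, and the medians were 1.89 for immediate early and 0.84 for TGF-β genes. Single genes lay on the other side of 0 in 143 of 2754 values over all alternatives, and in 32 of 228 under thinning. Counting only genes whose main interval did not hold 0, the direction turned under thinning for *Ighg2c* (0.45), *Gzma* (−0.10), *Nkg7* (−0.061), *Entpd1* (−0.63), *Cd27* (−0.011) and *Top2a* (0.37), with the further T cell genes excluded for *Fcer1g* (0.30), *Hspa8* (−0.18), *Socs1* (0.38), *Ifngr1* (−0.56) and *Hmgb2* (−0.26), and without exclusion by *Cd79a* and *C1qa* for *Ighg2c* (3.21) and *Hsp90aa1* (0.024). Apart from the changes in what was counted, the cause was not tested. The doublet limit and the gate without *Cd79a* and *C1qa* were chosen after seeing the data.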
